A study of Mus musculus with 16 samples.

Results

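The 7 genes described here are Dppa2, Dppa3, Dppa4, Dppa5a, Tcl1, Eras and Fbxo15, transcripts known for their restriction to embryonic stem (ES) cells, the early embryo and the germ line. They were chosen by name, and each was represented by its probe set of highest mean level over all arrays; all 7 had one, out of 19938 genes measured. RNA was profiled on 16 one-colour Affymetrix arrays in 6 groups. The groups were 1 culture of ES cells of 129xC57BL6 F1 background and 5 tissue groups of 3 arrays: normal kidney, normal liver, kidney tumor, liver tumor and secondary kidney tumor. The tumors arose in reprogrammable mice, in which Dox switches on reprogramming factors. Per the series' design, Dox was given from 4 weeks of age over 7 days, and kidney tumors were collected once a further 7 days had passed without it. Normal kidney was of the same age, and no separate schedule or age was given for the liver groups. Secondary kidney tumors were transplants grown under the skin of immunodeficient mice. Per the labels, the mice were made with the ES cell line, tissues had a 129xC57BL6 F1 or mixed background, and tumors from chimeric mice may hold ICR cells. All levels are log2 of the deposited linear intensity, and changes are differences of log2 levels.

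Dppa2 and Dppa4 encode SAP domain proteins that bind chromatin as a pair, and they are known for keeping the promoters of early embryonic and germline genes open to activation. Dppa3, also called Stella, is a maternal factor that protects the egg's genome from changes in DNA methylation, and Dppa5a encodes a KH domain RNA-binding protein. Fbxo15 is an F-box gene and a target of Oct4 and Sox2, long used as a marker of reprogramming. Eras encodes a constitutively active Ras-like protein that stimulates PI3K signalling, and Tcl1 encodes a coactivator of the Akt kinase downstream of it. Several of these genes, Dppa3 and Dppa5a among them, are known to carry methylated promoters in somatic tissue.

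RefSeq promoter sequences of build GRCm38.p6, from 250 bases before to 50 bases after the start of transcription, are shown for Eras and Tcl1. The selection left out the chromosome of Fbxo15, so these 2 of the 7 genes need not be all that have a sequence. Eras and Tcl1 belong to the same PI3K and Akt route. Eras was called higher in both primary tumor comparisons, and Tcl1 was called in neither. The 2 genes were not tested against each other. Capitals mark the GC box, GGGCGG or its reverse complement CCGCCC, the core of sites bound by Sp and Klf factors.
Eras, chrX:7928558-7928857, minus strand: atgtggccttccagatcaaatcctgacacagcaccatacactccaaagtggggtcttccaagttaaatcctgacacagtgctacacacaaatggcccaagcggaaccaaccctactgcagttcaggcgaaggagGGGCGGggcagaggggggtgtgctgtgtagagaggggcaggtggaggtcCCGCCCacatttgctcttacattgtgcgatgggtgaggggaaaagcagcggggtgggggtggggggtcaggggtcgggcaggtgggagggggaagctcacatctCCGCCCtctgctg
Tcl1, chr12:105222688-105222987, minus strand: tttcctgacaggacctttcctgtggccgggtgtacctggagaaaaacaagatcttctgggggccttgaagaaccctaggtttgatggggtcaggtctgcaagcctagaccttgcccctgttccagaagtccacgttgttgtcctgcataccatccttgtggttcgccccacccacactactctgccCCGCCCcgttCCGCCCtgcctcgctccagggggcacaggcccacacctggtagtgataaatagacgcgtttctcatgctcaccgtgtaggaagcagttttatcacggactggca
The Eras window held 3 GC boxes and 8 CpG dinucleotides, and the Tcl1 window held 2 and 11. A GC box was present in 35.7% of the 32851 promoters of this length, whose median CpG count was 7. Neither window held the octamer ATGCAAAT or its reverse complement ATTTGCAT, present in 1.74% of all promoters, or the E-box CACGTG, present in 7.15%.

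The arrays had been brought to similar medians, 191 to 226 in linear intensity. No detection p came with the values. The 1194 olfactory and vomeronasal receptor genes on the array, which these tissues are not known to use, were therefore taken as a gauge of dim signal; their 95th percentile lay between 6.19 and 6.79 on the 16 arrays. Probes differ in how they respond, so this gauge shows roughly where a value is dim and is no detection limit. The receptor genes themselves fell in the tumors, by a median of 0.13 in kidney tumor, 0.24 in secondary tumor and 0.15 in liver tumor against normal tissue. Xist, expressed from the inactive X chromosome of females, stood at 10.84 and 10.19 in kidney tumors 2 and 3 and at 10.45 and 11.35 in liver tumors 2 and 3, against 5.60 to 6.31 in all other tissue arrays. Summed intensity of 10 proximal tubule markers was 77680 to 79968 in normal kidney, 18202 to 37866 in kidney tumors and 1641 to 2227 in secondary tumors. In bulk tissue, fewer cells of a type and less RNA per cell cannot be told apart.

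Each of the 7 genes was highest in ES cells, with no overlap with any tissue array. The ES cell level was 13.03 for Dppa5a, 11.77 for Dppa2, 10.98 for Fbxo15, 10.42 for Dppa4, 9.88 for Tcl1, 9.24 for Dppa3 and 8.73 for Eras. These levels describe single probe sets and are not compared between genes. Within each gene, by the probe set used, ES cells exceeded normal kidney 109-fold for Dppa5a, 49.2-fold for Dppa2 and 48.5-fold for Fbxo15. The excess was 14.9-fold for Tcl1, 11.8-fold for Dppa4, 10.2-fold for Dppa3 and 7.26-fold for Eras. With 1 ES cell array these differences carry no test. Below ES cells the order of the tissue groups differed from gene to gene, as the plot of array levels shows.

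**Figure D1:**
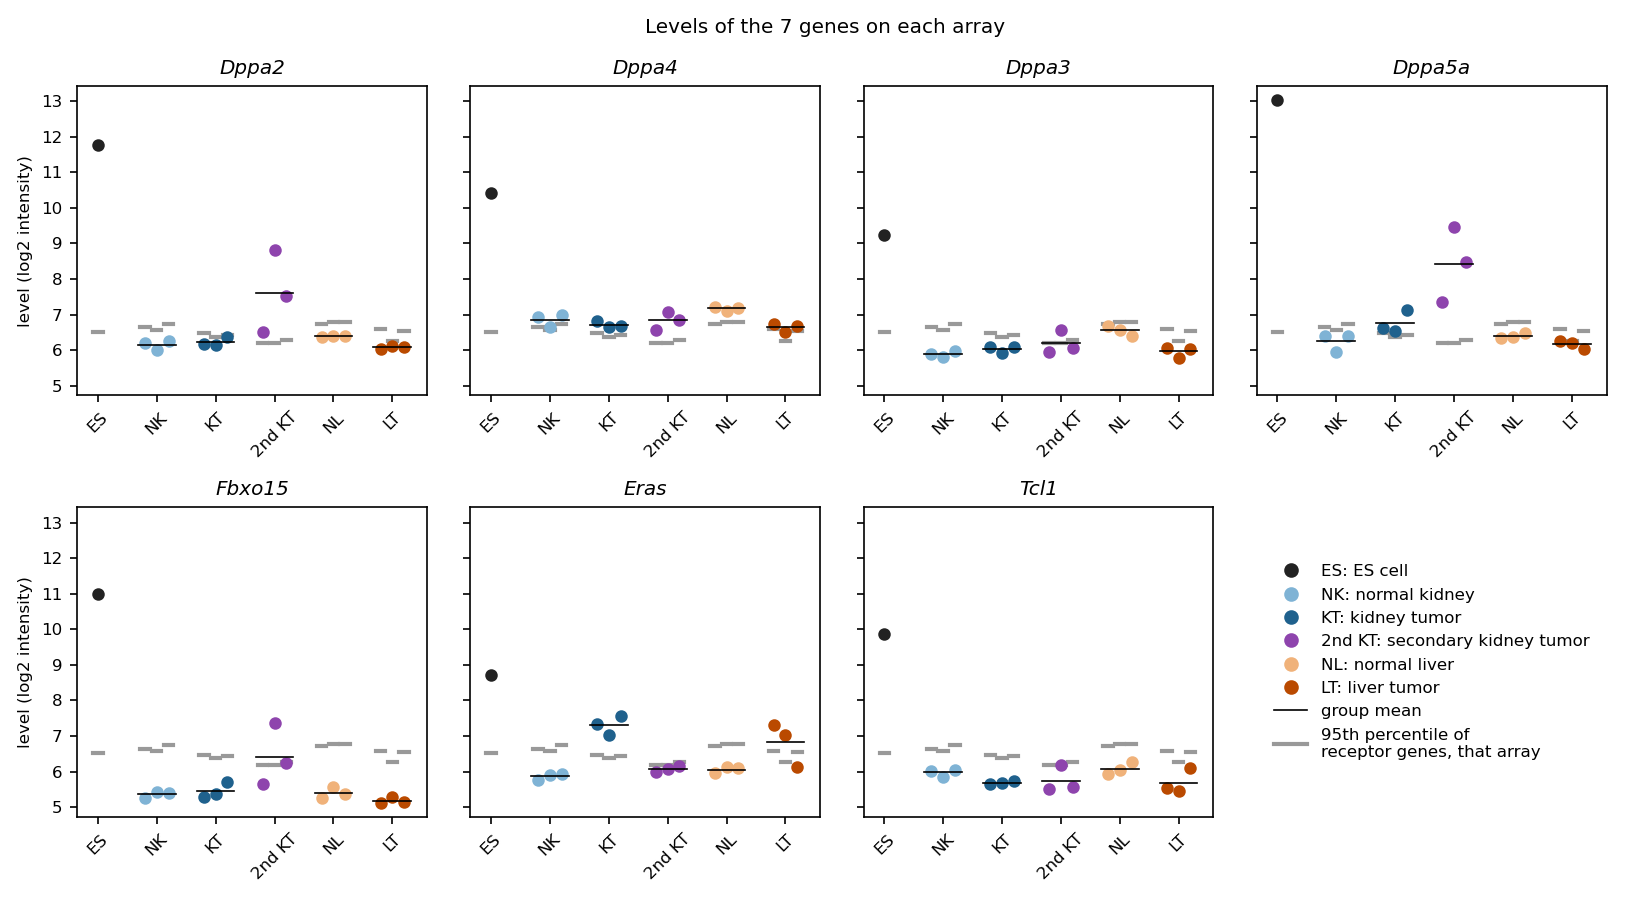
Level of each gene (y axis, log2 intensity) on each array, by group (x axis); black lines are group means and grey ticks the 95th percentile of 1194 receptor genes on the same array. The ES cell point is highest in every panel, Eras stands out in kidney tumors and in 2 of 3 liver tumors, and Dppa2, Dppa5a and Fbxo15 stand out in secondary kidney tumors, most in array 2.

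The first question was which of these transcripts are present in kidney tumors once Dox is gone. Eras was the 1 gene of the 7 that rose. It stood at 5.77, 5.91 and 5.93 in normal kidney and at 7.34, 7.04 and 7.55 in kidney tumors 1, 2 and 3. All 3 tumors lay above every normal kidney, and between percentiles 98.9 and 99.6 of the receptor genes on their own arrays. The change was 1.44 ± 0.23 (SE, n = 3 against 3), or 2.72-fold, with an adjusted p of 0.000184 in limma. Above the normal kidney mean, the Eras signal of the 3 tumors came to 28.4%, 20% and 35.3% of that in ES cells on the linear scale.

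The 6 remaining genes did not pass in kidney tumors. Dppa5a was 6.40, 5.96 and 6.40 in normal kidney and 6.63, 6.53 and 7.12 in the tumors. The groups did not overlap, and tumor 3 was the highest. The difference was 0.50 ± 0.38 (SE, adjusted p 0.281 in limma, 0.0673 to 0.675 over the alternatives). That SE rests on a spread pooled over all groups. The SD was 0.26 in normal kidney, 0.31 in kidney tumors and 1.07 in secondary tumors. Dppa2 averaged 6.15 ± 0.14 (SD) in normal kidney and 6.23 ± 0.12 in tumors, and Fbxo15 averaged 5.38 ± 0.09 and 5.46 ± 0.22. Dppa3 differed by 0.14 ± 0.14, Dppa4 by -0.14 ± 0.12 and Tcl1 by -0.30 ± 0.19 (SE). Thus 1 of 7 genes was called higher and none lower, where 49.8% of all genes tested were called, 21.7% higher and 28.1% lower; without adjustment the count at p under 0.05 was also 1. The median change of the 7 was 0.08, beside -0.11 over all genes. Tcl1, with all 3 tumors at 5.64 to 5.74 below all 3 normal kidneys at 5.85 to 6.06, passed as lower when only these 2 groups were fitted (adjusted p 0.026; 0.026 to 0.427 over the alternatives). Without the 2 kidney tumor arrays with Xist signal, only kidney tumor 1 remained, assumed to vary like the other groups, and Eras was again the 1 gene called.

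**Figure D2:**
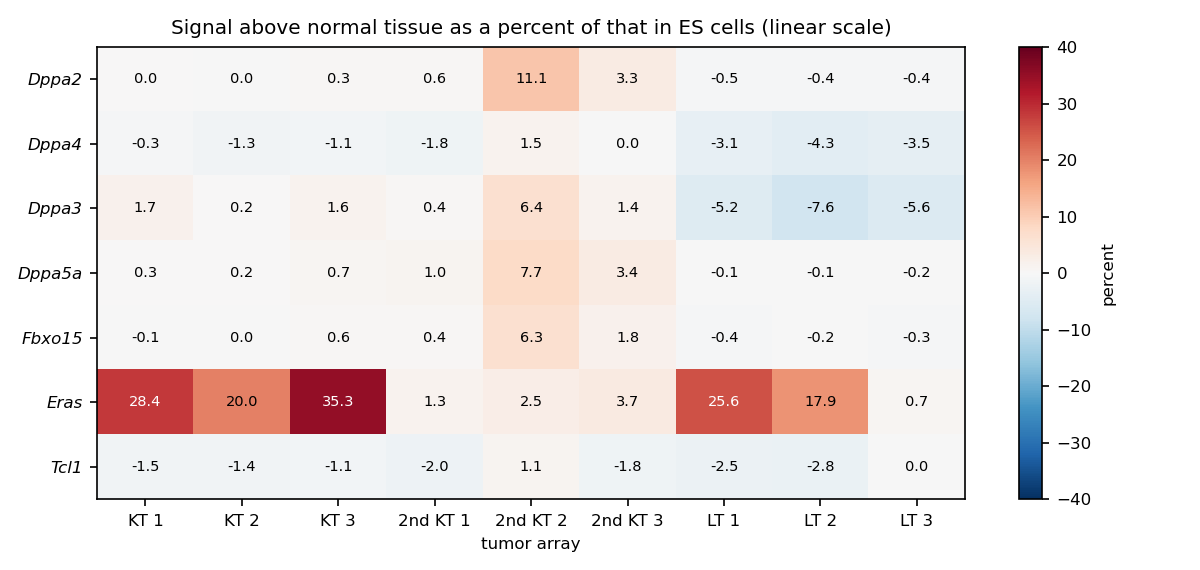
Tumor signal above the mean of its normal tissue, as a percent of the ES cell signal above that mean (linear intensity), for each gene (rows) and tumor array (columns); negative values lie below normal tissue. Eras reached 20% to 35.3% in kidney tumors and 25.6% and 17.9% in liver tumors 1 and 2, and Dppa2 reached 11.1% in secondary kidney tumor 2.

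Secondary kidney tumors showed another set. Dppa2, Dppa5a and Fbxo15 rose against normal kidney, and Eras did not pass. Dppa5a was 7.34, 9.47 and 8.47 in secondary tumors 1, 2 and 3, all above the highest normal kidney at 6.40. Its change was 2.17 ± 0.38 (SE, n = 3 against 3), 4.51-fold, with an adjusted p of 0.000227 in limma.

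Dppa2 read 6.52, 8.82 and 7.52 on those 3 arrays, above its normal kidney range of 5.99 to 6.27, a change of 1.47 ± 0.38 (SE; adjusted p 0.0045). Fbxo15 stood at 5.64, 7.38 and 6.25, against 5.27 to 5.44, a change of 1.05 ± 0.31 (SE; adjusted p 0.00899). For each of the 3 genes secondary tumor 2 was highest, tumor 3 next and tumor 1 lowest, only slightly above normal kidney for Dppa2 and Fbxo15. The spread within the group was accordingly wide, with SDs of 1.15 for Dppa2, 1.07 for Dppa5a and 0.88 for Fbxo15, against 0.09 to 0.26 in normal kidney.

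The signal above normal kidney in secondary tumor 2 was 11.1% of that in ES cells for Dppa2, 7.68% for Dppa5a and 6.33% for Fbxo15. In tumor 1 it was 0.598%, 1.03% and 0.415%. Without secondary tumor 2, the change of Dppa2 was 0.86, of Dppa5a 1.65 and of Fbxo15 0.57 on the log2 scale, and all 3 passed (adjusted p 3.55e-05 for Dppa2, 2.41e-06 for Dppa5a and 0.00033 for Fbxo15), in a fit whose pooled spread is then smaller. With normal kidney and secondary tumor fitted alone they also passed, at 0.036, 0.00573 and 0.0463.

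In the count, 3 of 7 genes were higher in secondary tumors than in normal kidney and none lower, beside 29.9% and 38.7% of all genes (68.6% together); without adjustment the count was also 3. The median change of the 7 was 0.30, beside -0.12 over all genes. Dppa3 was 5.95, 6.56 and 6.06 in secondary tumors against 5.82 to 5.97, a difference of 0.30 ± 0.14 (SE; adjusted p 0.0743), with tumor 2 again the highest. It passed as higher under quantile normalization (adjusted p 0.0058), with array weights, on a background-subtracted scale and without secondary tumor 1, with a range of 0.0058 to 0.55 over the alternatives. Dppa4 differed by -0.02 ± 0.12, Tcl1 by -0.23 ± 0.19 and Eras by 0.21 ± 0.23 (SE). Tcl1 passed as lower without secondary tumor 2, at a log2 change of -0.45 (adjusted p 0.0327; 0.0327 to 0.748 over the alternatives). Eras, at 5.98 to 6.17 in secondary tumors and 5.77 to 5.93 in normal kidney, passed as higher with these groups fitted alone (adjusted p 0.0443; 0.0443 to 0.988 over the alternatives).

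Dppa2, Dppa3 and Dppa4 each had a second probe set, of lower mean level, annotated to the same transcripts. In ES cells these second sets stood at 10.2 for Dppa2, 9.55 for Dppa3 and 9.85 for Dppa4, so the folds given above depend on the probe set. Probe sets of adjoining genes often carry close numbers on this array. The second sets of Dppa2 and Dppa4 are numbered close to that of Morc1, their chromosomal neighbour, and the sets used for them are not. For Dppa3 the set used is the one numbered close to that of Nanog, its neighbour. Whether any of these sets reads a copy of the gene elsewhere in the genome was not tested. The second probe set of Dppa2 stood at 4.93 to 5.12 in normal kidney and at 5.03, 6.89 and 5.68 in secondary tumors 1, 2 and 3, and it passed (change 0.86 ± 0.31, SE; adjusted p 0.0274 over 21789 probe sets). The second probe set of Dppa4 stood at 4.87 to 5.21 in normal kidney and at 4.93, 6.02 and 5.48 in secondary tumors. Its difference of 0.44 ± 0.20 did not pass (adjusted p 0.0694), and the 2 probe sets of Dppa4 differ in sign here. Its order among the secondary tumors was that of Dppa2, and the share of all genes with that order is not given. The second probe set of Dppa3 differed by 0.09 ± 0.11.

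Set directly against primary kidney tumors, Eras was lower in secondary tumors and the other 3 were higher. Eras fell by 1.23 ± 0.23 (SE, n = 3 against 3; adjusted p 0.000983 in limma), with every secondary tumor below every primary tumor. Dppa5a rose by 1.67 ± 0.38 (adjusted p 0.00367), Dppa2 by 1.39 ± 0.38 (0.0124) and Fbxo15 by 0.96 ± 0.31 (0.0266), the last with secondary tumor 1 at 5.64 below primary tumor 3 at 5.71. Thus 3 of 7 were higher and 1 lower, beside 18.5% and 17.4% of all genes (36% together). The 3 increases were lost with these groups fitted alone (adjusted p 0.0526 for Dppa5a, 0.0965 for Dppa2 and 0.131 for Fbxo15), while Eras passed in each of its 16 alternatives (0.000263 to 0.0135). Fbxo15 was also lost without primary tumor 1 (0.0764), primary tumor 2 (0.0725) or secondary tumor 2 (0.0571), and Dppa2 with its second probe set (0.0679); both were lost without the 2 primary tumor arrays with Xist signal (0.0916 for Fbxo15 and 0.0917 for Dppa2), which leaves 1 primary tumor, assumed to vary like the other groups.

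**Figure D3:**
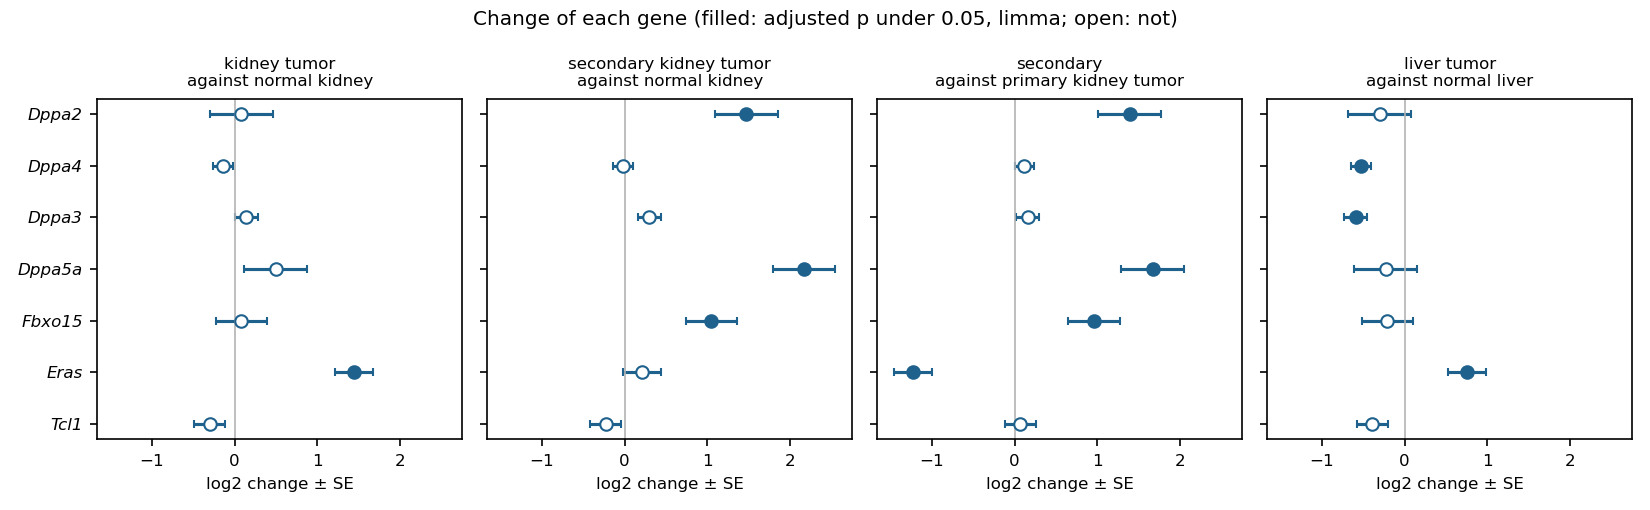
Log2 change of each gene (x axis, ± SE of the limma fit) in 4 comparisons; filled points have an adjusted p under 0.05 over all genes. Eras is filled and positive in both primary tumor comparisons and negative in secondary against primary tumors, where Dppa2, Dppa5a and Fbxo15 are filled and positive.

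Liver tumors were compared with normal liver to ask the same question in a second organ. Eras was again the 1 gene called higher, but not in every tumor. It stood at 5.96, 6.13 and 6.09 in normal liver and at 7.31, 7.03 and 6.12 in liver tumors 1, 2 and 3, so that tumor 3 lay within the normal range. The change was 0.76 ± 0.23 (SE, n = 3 against 3; adjusted p 0.0153 in limma). It did not pass without liver tumor 1 (0.51, adjusted p 0.0598), without liver tumor 2 (0.65, adjusted p 0.0612), with array weights (0.32, adjusted p 0.206) or with the liver groups fitted alone (adjusted p 0.0796). Over its alternatives the adjusted p ran from 8.75e-05 to 0.206.

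Dppa3 fell in liver tumors, and so did Dppa4 by the probe set used. Dppa3 was 6.69, 6.56 and 6.41 in normal liver, above normal kidney, and 6.07, 5.79 and 6.03 in the tumors, a change of -0.59 ± 0.14 (SE; adjusted p 0.00424). Dppa4 was 7.22, 7.11 and 7.19 and then 6.73, 6.52 and 6.67, a change of -0.53 ± 0.12 (SE; adjusted p 0.00348). In both cases the groups did not overlap. Dppa3 was below the 95th percentile gauge: it lay between percentiles 89 and 94.3 of the receptor genes in normal liver and between 84.4 and 85.3 in tumors. By the probe set used, Dppa4 was above it, at 97.7 to 98.6 in normal liver and 96.4 to 97.7 in tumors. In this comparison 27.9% of the receptor genes were themselves called lower here. The share of that shift in the 2 decreases was not tested. The second probe set of Dppa3 also fell (-0.37 ± 0.11, adjusted p 0.0145). That of Dppa4, the set numbered close to its neighbour Morc1, did not pass (-0.19 ± 0.20, adjusted p 0.433). It stood at 4.95 to 5.09 in normal liver and at 4.76 to 4.93 in tumors. On each of these arrays it lay below the median of the receptor genes, which was 5.32 to 5.37 in normal liver and 5.13 to 5.23 in tumors.

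Dppa2, Dppa5a, Fbxo15 and Tcl1 did not pass in liver tumors, with changes from -0.39 ± 0.19 (Tcl1) to -0.21 ± 0.31 (Fbxo15). Dppa2 was 6.38 to 6.40 in normal liver and 6.04 to 6.12 in tumors, with no overlap. Dppa5a did not overlap either, at 6.33 to 6.47 and 6.04 to 6.25. The pooled spread in these tests includes the wide secondary tumors (SD 1.15 for Dppa2). With the liver groups fitted alone Dppa2 passed as lower (adjusted p 0.0262 in limma, 0.0262 to 0.793 over the alternatives). In all, 1 of 7 genes was higher and 2 lower, beside 21.5% and 30.7% of all genes (52.3% together), with a median change of -0.30 against -0.13 over all genes. Tcl1 was 5.53, 5.46 and 6.09 in liver tumors 1, 2 and 3 and 5.94 to 6.26 in normal liver. It passed as lower without liver tumor 3 (-0.59, adjusted p 0.0162) and with arrays centred on their medians (adjusted p 0.0362).

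The tumor effects in the 2 organs were then compared in the same fit. Of the 7 genes, 1 differed, with the kidney effect higher, beside 16.8% of all genes (7.54% higher and 9.26% lower). For Dppa3 the kidney effect exceeded the liver effect by 0.73 ± 0.20 (SE; adjusted p 0.0241), 0.14 in kidney against -0.59 in liver. That call was lost without any 1 of 5 arrays, normal kidney 1 or 2, kidney tumor 3 or normal liver 1 or 2 (adjusted p 0.0504 to 0.0588), and with its second probe set (0.306). For Eras the difference of 0.68 ± 0.33 did not pass (adjusted p 0.183), and it did pass without liver tumor 1 (0.93, adjusted p 0.0429) and with array weights (0.0166).

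Over the 15 tissue arrays, Dppa2, Dppa5a and Fbxo15 varied together, with Pearson correlations of 0.95 to 0.97 that describe mainly the secondary tumors. Eras did not follow them, with correlations of -0.24 with Dppa2, -0.10 with Dppa5a and -0.19 with Fbxo15. Dppa3 and Dppa4 correlated at 0.83, and Tcl1 with Dppa4 at 0.72. These are descriptions over arrays that share processing and groups. With the ES cell array included every pair was at 0.52 or above, which that 1 array largely sets.

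The genes most like Eras over the 15 tissue arrays were Foxi3, a forkhead factor gene (r = 0.945), Dnmt3b, a de novo DNA methyltransferase gene (0.943), and L1td1, an RNA-binding protein gene of ES cells derived from a LINE-1 element (0.942). L1td1 stood at 8.15, 8.08 and 8.39 in kidney tumors 1, 2 and 3, at 7.07 to 7.34 in secondary tumors and at 8.84, 8.15 and 7.14 in liver tumors 1, 2 and 3. L1td1 was picked for its correlation with Eras on these arrays, so its low liver tumor 3 and high kidney tumors follow from that choice. Dnmt3b, picked in the same way, stood at 10.91, 10.25 and 9.36 in liver tumors 1, 2 and 3, so this order follows from its choice too. It stood at 8.50 to 9.01 in secondary tumors, above its 7.03 to 7.61 in normal kidney. Pou5f1, which encodes Oct4 and was named after its values were seen, had the same order, at 10.83, 9.72 and 8.55 in the liver tumors.

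The genes most like Dppa2 were Zfp640, a zinc finger gene (r = 0.982), Crct1 (0.977) and Gm6083 (0.973). Those most like Fbxo15 were Crct1 (0.967), Zfp640 (0.964) and Tdrd12, a Tudor domain gene of the piRNA pathway (0.946). For Dppa5a they were Pcdhb5 (0.971), Zfp980 (0.966) and Zfp640 (0.966). Zfp640 stood at 5.28, 7.45 and 6.39 in secondary tumors 1, 2 and 3, at 10.10 in ES cells and at 4.76 to 4.99 in all other tissues. Its 3 secondary tumors fell in the order seen for Dppa2, which follows from its choice by correlation on these arrays. For Dppa3, Dppa4 and Tcl1 the closest genes reached 0.854 to 0.863, 0.913 to 0.915 and 0.850 to 0.873, led by Prss32, Crh and Nms. Over all 16 arrays the closest genes were Sox15 for Dppa4 (0.995), Rec114 for Dppa3 (0.976), Gpa33 for Tcl1 (0.987), Zfp640 for Dppa2 (0.995) and Dppa5a (0.991), AU018091 for Fbxo15 (0.991) and L1td1 for Eras (0.968).

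**Figure D4:**
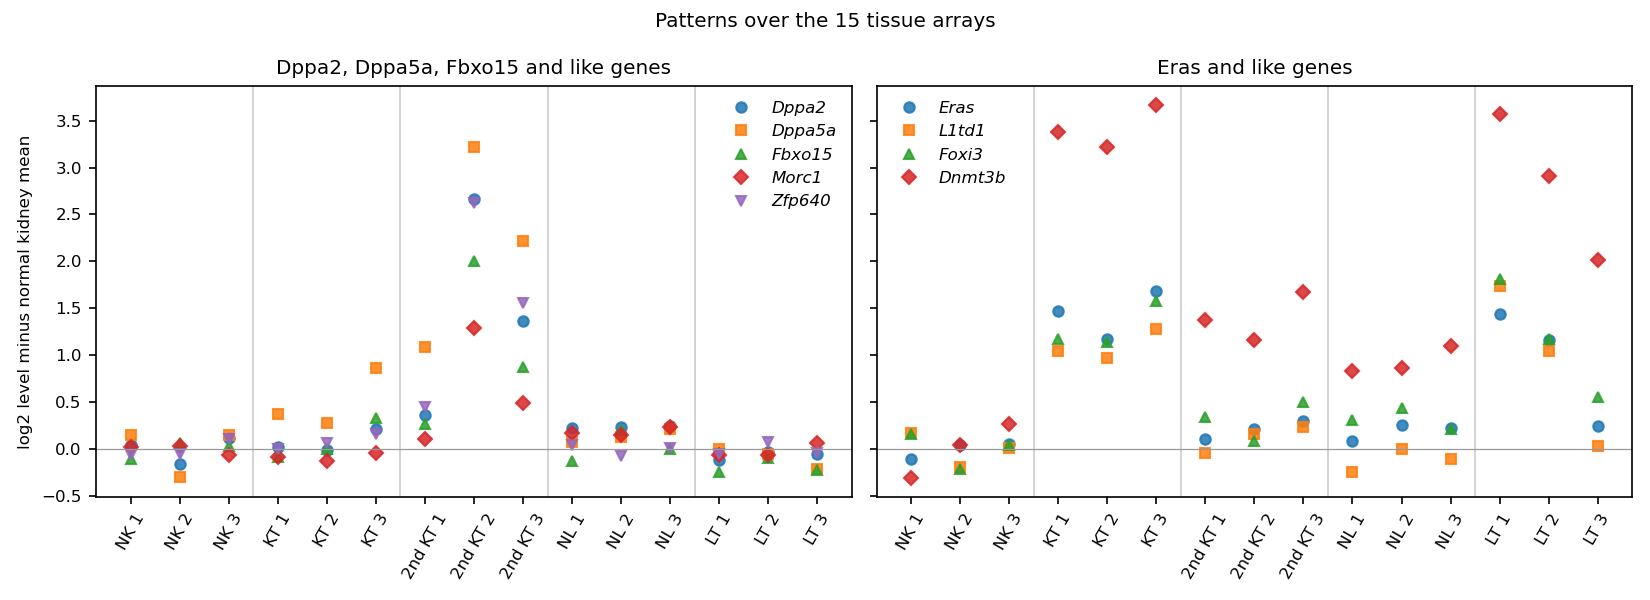
Log2 level of each gene minus its normal kidney mean (y axis) on the 15 tissue arrays (x axis; NK and NL normal kidney and liver, KT and LT tumors, 2nd KT secondary tumors). Left, Dppa2, Dppa5a and Fbxo15 with Morc1 and Zfp640 peak in secondary tumor 2. Right, Eras with L1td1, Foxi3 and Dnmt3b is high in kidney tumors and in liver tumors 1 and 2. The genes drawn beside Dppa2, Dppa5a, Fbxo15 and Eras were picked by correlation with them, so the likeness follows from that choice.

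Genes adjoining the 7 on the chromosome were examined in the order of protein-coding genes in RefSeq. Dppa4 and Dppa2 are neighbours on chromosome 16, followed by Morc1, a GHKL ATPase gene known from male germ cells. Morc1 rose in secondary tumors with Dppa2 (0.63 ± 0.21, SE; adjusted p 0.0161), at 5.92, 7.10 and 6.30 in tumors 1, 2 and 3 against 5.75 to 5.85 in normal kidney. Its correlation with Dppa2 over all 16 arrays, the ES cell array included, was 0.987, the second highest of any gene outside the 7. Over the 15 tissue arrays Morc1 was not among the 3 genes closest to Dppa2. Trat1, the next gene, stayed at 4.70 to 4.80 in the group means of all tissues.

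Dppa3 lies on chromosome 6 between Gdf3 and Nanog, with the glucose transporter gene Slc2a3 beyond Nanog. Its neighbours rose in kidney tumors where Dppa3 did not pass: Gdf3 by 0.60 ± 0.18 (adjusted p 0.0142), Nanog by 2.40 ± 0.27 (1.29e-05) and Slc2a3 by 5.78 ± 0.19 (3.27e-09). In liver tumors Nanog rose by 3.02 ± 0.27 (adjusted p 3.42e-06) and Slc2a3 by 4.83 ± 0.19, while Dppa3 fell. Whether the change of Dppa3 differs from that of a neighbour was not tested.

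Eras lies on the X chromosome between Pcsk1n and Hdac6. Pcsk1n, an inhibitor of prohormone convertase, rose by 0.76 ± 0.27 in kidney tumors (adjusted p 0.0297) and by a further 2.04 ± 0.27 from primary to secondary tumors (5.72e-05), where Eras fell. Hdac6 moved with Eras in 2 comparisons. It changed by -0.64 ± 0.14 from primary to secondary tumors (adjusted p 0.00255 in limma) and by 0.53 ± 0.14 in liver tumors (0.00605). In kidney tumors Hdac6 did not pass (0.31 ± 0.14, 0.0718). Of the next genes out, Gata1 changed by -0.34 ± 0.09 from primary to secondary tumors (0.0117), and Timm17b did not pass there (0.09 ± 0.13). Kidney tumor 1, without Xist signal, and kidney tumors 2 and 3, with it, all had high Eras. In liver tumors 1, 2 and 3 Xist stood at 5.88, 10.45 and 11.35, and Eras at 7.31, 7.03 and 6.12. Whether the 2 are linked was not tested. Dppa5a, on chromosome 9, adjoins Ooep, another KH domain gene, which was 11.65 in ES cells and 7.58, 8.37 and 8.14 in secondary tumors 1, 2 and 3 against 7.86 ± 0.03 (SD) in normal kidney and did not pass. Tcl1b3 and Tcl1b4, beside Tcl1 on chromosome 12, fell in secondary tumors by 0.37 ± 0.09 (adjusted p 0.00258 in limma) and 0.40 ± 0.12 (0.00863). In ES cells they stood at 4.99 and 6.90, against means of 5.19 and 6.85 in normal kidney. The receptor genes also fell in secondary tumors, by a median of 0.24, with 60.4% called lower. Cyb5a and Timm21 flank Fbxo15, and Cyb5a, a cytochrome b5 gene of metabolic tissue, fell by 2.42 ± 0.16 in secondary tumors (5.1e-08). Timm21 did not pass there (-0.15 ± 0.14). Neto1, the gene beyond Timm21, rose there by 2.75 ± 0.15 (adjusted p 7.09e-09 in limma), as Fbxo15 did. Unlike Fbxo15, Neto1 was not high in ES cells, at 5.82 against a mean of 5.86 in normal kidney.

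Other ES cell-associated transcripts were listed for comparison. Of 29 measured, 18 rose and 2 fell in kidney tumors (median 1.10), 17 rose and 4 fell in secondary tumors (median 0.81) and 14 rose and 3 fell in liver tumors (median 0.57). Of all genes, 21.7% rose and 28.1% fell in kidney tumors, 29.9% and 38.7% in secondary tumors and 21.5% and 30.7% in liver tumors. Sox2 rose by 4.46 ± 0.24 in kidney tumors (SE; adjusted p 5.1e-08), 5.33 ± 0.24 in secondary tumors (2.01e-09) and 4.23 ± 0.24 in liver tumors (8.03e-08). Esrrb, a naive pluripotency factor that normal kidney also expresses, fell in kidney tumors (-1.49 ± 0.26, adjusted p 0.000333), as did Tfcp2l1, a collecting duct and ES cell factor (-1.09 ± 0.34, 0.0171). From primary to secondary tumors 4 of the 29 rose and 9 fell, among the latter Dnmt3b by 2.02 ± 0.30 (adjusted p 0.000172 in limma). Of all genes, 18.5% rose and 17.4% fell there.

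Germline genes known to be silenced by DNA methylation were counted in the same way. Of 24 measured, 9 rose and 4 fell in secondary tumors, against 0 and 2 in kidney tumors and 0 and 8 in liver tumors in limma; at an unadjusted p under 0.05 the counts were 9 and 4, 0 and 3, and 0 and 9. Of all genes, 29.9% rose and 38.7% fell in secondary tumors, so that the 9 of 24 is near the background. Directly from primary to secondary tumors 11 rose and none fell (11 and 1 unadjusted), with a median of 0.13 beside -0.07 over all genes, of which 18.5% rose and 17.4% fell. Sohlh2, a germ cell transcription factor gene, rose there by 3.11 ± 0.20 (SE; adjusted p 1.08e-07) and Mael, a piRNA pathway gene, by 2.13 ± 0.25 (2.44e-05). Dazl, an RNA-binding protein gene of germ cells, stood at 5.62, 7.80 and 7.17 in secondary tumors 1, 2 and 3 and rose by 1.53 ± 0.37 (0.00621). That is the order seen for Dppa2, and the share of all genes with it is not given.

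Sohlh2, at 8.30, 9.23 and 9.27, was about as high in tumor 3 as in tumor 2. The summed intensity of 8 germ cell markers, of which 7 are also in that list, was 616 to 934 in secondary tumors, 588 to 660 in normal kidney and 2617 in ES cells; 3 of the 8 rose and 2 fell against normal kidney. The summed intensity of 8 ES cell markers was 1975, 3157 and 2254 in secondary tumors 1, 2 and 3, below the 4115 to 4845 of normal kidney, and 3 of the 8, led by Tdgf1 and Nanog, rose while 2, Tfcp2l1 and Esrrb, fell. Keratinocyte markers summed to 3130 to 4695 in secondary tumors and 863 to 1071 in normal kidney, with 6 of 8 higher and 2 lower. All 8 fibroblast markers were higher, with sums of 23083 to 33021 against 4866 to 5796, and 5 of 8 myeloid markers were higher and none lower, with sums of 7541 to 13710 against 2731 to 3402. Of all genes, 29.9% were higher and 38.7% lower in secondary tumors than in normal kidney. The part of these marker genes in the Dppa2, Dppa5a and Fbxo15 increases was not tested.

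Genes of the 2-cell embryo, some of which Dppa2 and Dppa4 are known to activate in ES cells, were also counted. Only 13 of the 29 listed were measured, and the Zscan4 genes and Dux were not among them. Of the 13, 0 rose and 8 fell in secondary tumors in limma (0 and 8 at an unadjusted p under 0.05), with a median change of -0.34 beside -0.24 for the receptor genes, of which 60.4% were called lower. KH domain genes of the oocyte and embryo, relatives or partners of Dppa5a, had 0 of 8 higher and 2 lower in secondary tumors (0 and 2 unadjusted). Of 5 other Tcl1 family genes, 0 were higher and 4 lower (0 and 4 unadjusted). Beside these lists, 29.9% of all genes were higher and 38.7% lower in secondary tumors.

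Among relatives of Eras, 3 of 4 Ras genes rose and 1 fell in kidney tumors, with Nras up by 1.29 ± 0.13 (SE; adjusted p 4.38e-06). Of 21 PI3K and Akt pathway genes 3 rose and 7 fell in kidney tumors and 4 rose and 3 fell in liver tumors, beside 49.8% and 52.3% of all genes called in those comparisons, shares no smaller than those of the list. In secondary tumors 8 of the 21 rose and 6 fell; Akt1 rose by 0.99 ± 0.11 (4.64e-06), and Mtor, a kinase further down this route, fell by 1.55 ± 0.13 (4.2e-07). Among 16 SCF ubiquitin ligase genes, the complex that F-box proteins join, 5 rose and 5 fell in kidney tumors and 8 rose and 5 fell in secondary tumors. Beside these lists, 21.7% of all genes rose and 28.1% fell in kidney tumors, and 29.9% rose and 38.7% fell in secondary tumors. Ccnf, which encodes the F-box protein cyclin F, rose by 3.26 ± 0.20 in the latter (2.65e-08), where Fbxo15 rose by 1.05.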

How the data were processed

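The deposited values were linear intensities, 1 per probe set and array; how the authors corrected background and normalized them is not stated in the labels or headers. Values lay between 20.7 and 20262. The log2 of each was taken without further scaling. Of 28856 probe sets, those with 1 gene symbol (21789; several 1621, none 5446) were used, and the probe set of highest mean was kept per symbol, which left 19938 genes. The model (limma 3.58.1, R 4.3.3) took all 16 arrays and 1 coefficient per group, with 10 residual degrees of freedom and 1 pooled spread per gene. Benjamini-Hochberg adjustment ran over all genes and calls were made at 0.05, 2-sided. No label ties replicates to separate animals, so the spread behind each p-value may be technical. Precision is limited by how few arrays there are.

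The 7 genes and all lists were chosen with earlier results of these data known. Further genes were named by rule: the called list genes of largest fold, the 3 genes most correlated with each of the 7, and chromosomal neighbours. Pou5f1 was named after its values were seen. The fit was tested on simulated data. Alternatives were a fit on compared groups alone, quantile normalization, median centring, leaving out the dimmest 33.3% of genes, averaged probe sets, an intensity trend, a replicate block, array weights (whose estimation stopped before convergence), a background-subtracted scale (each array's 5th percentile, floor 16), leaving out each array or the 2 kidney tumor arrays with Xist signal, and, chosen after seeing the data, the other probe set of Dppa2, Dppa3 and Dppa4.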

Additional observations from a re-analysis of the deposited data

Results flagged for a closer look

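The tumor effect on Dppa3 differed between the organs by a tested interaction of 0.73 on the log2 scale (adjusted p 0.0241 in limma), with 0.14 ± 0.14 (SE) in kidney and -0.59 ± 0.14 in liver. All 3 liver tumors were below all 3 normal livers, and 2 of 3 kidney tumors were above all 3 normal kidneys. The call did not hold without any 1 of 5 arrays or with the second Dppa3 probe set (0.26, adjusted p 0.306). Dppa3 lay below the 95th percentile of the receptor genes on every array of both comparisons.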

How the results depend on the processing

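No called change of the 7 genes reversed its direction under any alternative run. The count of the 7 called was 1 in kidney tumor, 3 in secondary tumor, 4 in secondary against primary tumor, 3 in liver tumor and 1 for the difference between organs. With the compared groups fitted alone the counts were 2, 4, 1, 3 and 1 in that order, with Eras called in secondary tumor and lost in liver tumor, where Dppa2 was called as lower. Without the dimmest 33.3% of genes, which removes all of the 7 but Dppa5a, the counts were 0, 1, 1, 0 and 0 in that order (the same at an unadjusted p under 0.05 in limma). For the difference between organs the count was 0 with averaged probe sets (1 unadjusted), 0 with the other probe sets (0 unadjusted) and 0 without the 2 kidney tumor arrays with Xist signal (1 unadjusted), which leaves 1 kidney tumor, assumed to vary like the other groups, and gave 2 in secondary against primary tumor. Leaving out 1 array gave 1 in every case for kidney tumor, 3 to 4 for secondary tumor, 3 to 4 for secondary against primary tumor, 2 to 4 for liver tumor and 0 to 2 for the difference between organs. Replicate numbers were not shown to pair samples: deviations of same-numbered arrays from their group means correlated at -0.28 to 0.27 across groups (median 0.03). With the replicate block the counts were 1, 3, 4, 3 and 1, and over all genes 9797, 13551, 7016, 10246 and 3295. Centring arrays on their medians moved the median change of all genes from -0.12 to -0.33 in secondary tumor and from -0.11 to -0.22 in kidney tumor. Signal within the range of the receptor genes limits the folds of all 7 in normal tissue.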

Other observations

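Genes that write, read or remove DNA methylation, the machinery that Dppa3 is known to act on, were counted in the 3 kinds of tumor. Of 15 measured, 9 rose and 3 fell in kidney tumors, 9 rose and 2 fell in secondary tumors and 9 rose and 1 fell in liver tumors. Of all genes, 21.7% rose and 28.1% fell in kidney tumors, 29.9% and 38.7% in secondary tumors and 21.5% and 30.7% in liver tumors. Those that rose were thus a larger share of this list than of all genes, in a list chosen with earlier results known. Counted in either direction, the 11 of 15 in secondary tumors is near the 68.6% of all genes, and the shares over all genes were 49.8% in kidney tumors and 52.3% in liver tumors. Uhrf1, which encodes the partner of Dnmt1 that Dppa3 binds, rose by 3.18 ± 0.21 in kidney tumors (SE, n = 3 against 3; adjusted p 2.37e-07 in limma) and by 2.64 ± 0.21 in secondary tumors (2.14e-07). Zfp57, which maintains methylation at imprinted genes, rose by 3.21 ± 0.19 in secondary tumors (1.56e-08) and by 3.00 ± 0.19 in liver tumors (2.06e-07), and Tet1, an enzyme that oxidises methylated cytosine, rose by 3.00 ± 0.18 in liver tumors (1.56e-07). Dnmt3l, a cofactor of the de novo methyltransferases, stood at 6.13, 7.43 and 6.98 in secondary tumors 1, 2 and 3 and at 11.83 in ES cells, and it rose from primary to secondary tumors by 0.75 ± 0.23 (0.0205). Its order among the secondary tumors was that of Dppa2, Dppa5a and Fbxo15. Nanog, at 9.04, 10.08 and 9.49, also had that order. The share of all genes with it is not given, so the match alone links no gene to these 3.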
